A study of Rattus norvegicus with 16 samples.

Results

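Molecular chaperones and folding factors of the rat were followed across 16 arrays of retina and pineal gland. The set held every probe set with 1 annotated gene symbol that begins with Hsp, Dnaj, Fkbp or Pdia, is a numbered Cct subunit or one of the cyclophilins Ppia to Ppih, or equals Calr, Canx, P4hb or Tcp1. This gave 87 probe sets for 45 genes, out of 8740 probe sets without controls and 4736 named genes. By the compartment of the protein, 24 genes belong to the cytosol and nucleus, 16 to the endoplasmic reticulum (ER) and 5 to the mitochondrion. Of the 45 genes, 20 had 1 probe set and 25 had several, up to 5 for Canx.

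Total RNA from rat retina was hybridised on 12 arrays, 3 each for ZT6, ZT12, CT6 and CT12, and RNA from pineal gland on 4 arrays, 1 for each of the same conditions. ZT (Zeitgeber time) conventionally counts hours from lights on in a light-dark cycle, and CT (circadian time) counts hours of the internal clock in its absence; the labels used here describe neither the lighting nor the strain, sex or age of the rats. No label ties the numbered retina arrays to separate animals, and the p-values below therefore cover only the spread between these samples, which may be technical. The array titled Pineal at ZT 12 carries 6.0 h in its description, and the pineal arrays carry retina as their source name, so tissue and hour were taken from the titles.

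Chaperones bind proteins that are not yet folded and keep them from aggregating. In the cytosol, Hsp70 proteins work in cycles driven by ATP that J proteins (Dnaj) start and Hsp110 proteins reset, and Hsp90 takes over late folding steps of kinases and receptors. In the ER, the Hsp70 protein BiP (Hspa5), the Hsp90 protein Grp94 (Hsp90b1), the lectins calnexin and calreticulin (Canx, Calr) and the protein disulfide isomerases (P4hb, Pdia) fold membrane and secreted proteins, among them rhodopsin in photoreceptors. When unfolded proteins build up in the ER, the unfolded protein response raises ER chaperone genes, in part through the ER stress response element, while heat shock factors raise cytosolic and mitochondrial chaperones through heat shock elements.

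The promoters of the member genes were searched because both response programmes act on short sequence elements. RefSeq promoters on build GRCr8 matched 40 of the 45 genes, all but Dnaja2, Fkbp3, Hspb2, Pdia3 and Pdia6, and the 250 bases before each gene start were searched on both strands. The ER stress response element, written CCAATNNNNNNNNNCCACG, was in 4 of the 40, Calr, Canx, Hsp90b1 and Hspa5, against 22 of 33469 promoters in all (0.0657%). The windows below are printed in the direction of the gene, with the matches in capitals, and a run that reads CGTGG first is a match on the other strand.
Hspa5, chr3:38452916-38453015, plus strand: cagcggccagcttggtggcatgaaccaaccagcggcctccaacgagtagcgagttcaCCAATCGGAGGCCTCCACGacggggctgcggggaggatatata
Calr, chr19:40213117-40213177, plus strand: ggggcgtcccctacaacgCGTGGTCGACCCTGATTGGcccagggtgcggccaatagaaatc
Canx, chr10:35158045-35158107, minus strand: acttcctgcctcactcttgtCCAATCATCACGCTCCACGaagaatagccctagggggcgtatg
Hsp90b1, chr7:23012323-23012493, minus strand: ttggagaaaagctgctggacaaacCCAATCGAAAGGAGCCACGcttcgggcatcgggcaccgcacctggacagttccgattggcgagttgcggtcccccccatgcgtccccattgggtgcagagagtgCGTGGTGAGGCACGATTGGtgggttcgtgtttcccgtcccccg

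The Hspa5 window is the last 100 bases before the annotated gene start, and its match begins 43 bases before it. Hsp90b1 held 2 matches, on opposite strands. The heat shock element, written GAANNTTCNNGAA, was in 3 of the 40 genes, Hspd1, Hspe1 and Hsph1, against 222 of 33469 promoters (0.663%). Hspd1 and Hspe1, which encode the mitochondrial chaperonin and its lid, lie head to head, and their windows show the same stretch from both strands, where 2 matches overlap into the run in capitals. No match in the other matched genes says only that these letters are not in the searched window, and a match is no measure of binding.
Hspe1, chr9:64084238-64084303, plus strand: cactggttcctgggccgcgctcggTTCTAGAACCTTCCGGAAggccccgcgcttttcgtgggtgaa
Hspd1, chr9:64084238-64084287, minus strand: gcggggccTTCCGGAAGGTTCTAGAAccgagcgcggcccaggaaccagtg
Hsph1, chr12:10427308-10427367, plus strand: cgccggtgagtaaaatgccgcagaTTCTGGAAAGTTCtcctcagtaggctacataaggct

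All levels below are log2 of the deposited intensity plus 16, after quantile normalization, and differences are given in log2 units with their standard error (SE). Of the 87 probe sets, 74 had a retina mean at or above the 40th percentile of all probe sets and were tested in the retina, and 76 in the comparison of tissues; 9 genes had no probe set past the retina filter. A call means an adjusted p under 0.05 from limma, with Benjamini-Hochberg adjustment over 5244 probe sets. CT12 array 1 stood apart: its median Spearman correlation with the other retina arrays was 0.837, against 0.944 to 0.962 for the rest, and the mean level of the rod marker list was 11.44 on it and 14.95 to 15.80 on the others. On this array 13 of the 74 members lay 1 log2 unit or more from the median of the other 11 retina arrays, 8 above and 5 below, against 0 to 3 on each other array. Beside the retina results below, the value without this array is given where a result turns on it. Precision rests on how many arrays each group has, since intensities carry no read depth.

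At hour 12 both tested probe sets of the ER chaperone Hspa5 were higher than at hour 6 on every retina array, under ZT and under CT. With all 12 arrays the difference did not pass the threshold, and without CT12 array 1 it did. Hspa5 encodes BiP, the Hsp70 protein of the ER and a sensor of the unfolded protein response. Its probe set M14050_s_at read 12.82, 12.66 and 12.77 at ZT6 and 12.92, 12.81 and 12.91 at CT6. At hour 12 it read 13.23, 13.18 and 13.22 at ZT12 and 13.09, 13.44 and 13.46 at CT12. The 6 arrays of hour 12 all lay above the 6 of hour 6, and the lowest of them was CT12 array 1. The second probe set, S63521_i_at, read 10.27, 10.25 and 10.15 at ZT6, 10.48, 10.48 and 10.14 at CT6, 10.82, 10.69 and 10.91 at ZT12, and 10.69, 10.71 and 10.84 at CT12. It showed the same separation of the hours, on other probes of the same gene. The remaining probe set, S63521_r_at, lay below the filter with a retina mean of 5.45, and its hours overlapped.

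The difference over both regimes was 0.46 ± 0.10 (SE, 6 arrays against 6; limma adjusted p = 0.121) for M14050_s_at, a 1.37-fold higher intensity. For S63521_i_at it was 0.48 ± 0.10 (limma adjusted p = 0.107). Without CT12 array 1 both probe sets rose, by 0.50 ± 0.08 (limma adjusted p = 0.0141) and by 0.50 ± 0.10 (limma adjusted p = 0.0412), and they were the only 2 of 74 members called, where 1.3% of all probe sets were called. Over 23 alternatives the difference of M14050_s_at lay between 0.40 and 0.52, with limma adjusted p from 0.000437 to 0.645 and 2 calls. That of S63521_i_at lay between 0.36 and 0.51, with limma adjusted p from 0.00212 to 0.661 and 3 calls. The size of the Hspa5 difference thus held in all of them, while its side of the threshold did not. Split by regime, M14050_s_at gave 0.46 ± 0.14 under ZT (limma adjusted p = 0.31) and 0.45 ± 0.14 under CT (limma adjusted p = 0.13). S63521_i_at gave 0.59 ± 0.14 under ZT (limma adjusted p = 0.15) and 0.38 ± 0.14 under CT (limma adjusted p = 0.151).

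The level of lens genes also differed between the hours, with a mean over 12 lens genes, crystallins among them, of 14.39 to 17.22 on the arrays of hour 12 and 11.27 to 15.37 on those of hour 6. Over the 12 arrays its Pearson correlation with Hspa5 was 0.56 for M14050_s_at (permutation p = 0.058, 0.27 adjusted over 74 members; rho 0.50, permutation p = 0.11) and 0.61 for S63521_i_at (permutation p = 0.034, 0.21 adjusted; rho 0.54, permutation p = 0.072). Without the 2 arrays farthest from the median lens level, r was 0.40 and 0.28. For use as a covariate, here and below, the lens level was averaged over every probe set of the lens genes instead of the brightest of each gene. With the lens level as a covariate the hour difference of Hspa5 was 0.46 ± 0.13 on M14050_s_at (limma adjusted p = 0.645) and 0.42 ± 0.13 on S63521_i_at (limma adjusted p = 0.661).

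**Figure D1:**
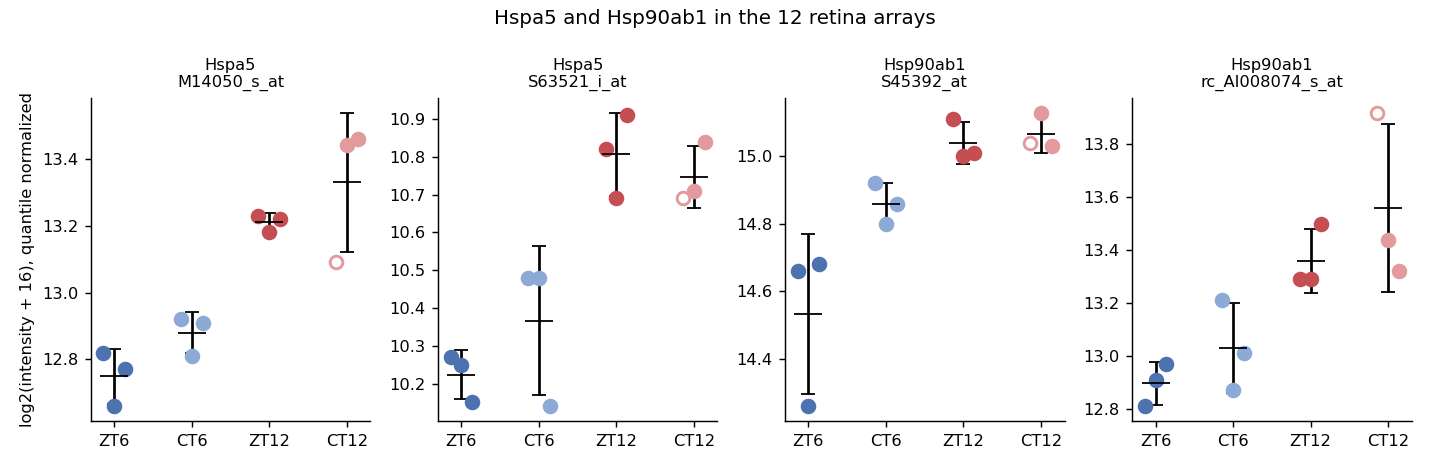
Levels of 2 probe sets each of Hspa5 and Hsp90ab1 on the 12 retina arrays, as log2 of intensity plus 16 after quantile normalization. Each point is 1 array, black lines give the group mean ± SD of 3 arrays, and the open point is CT12 array 1; in each panel every array of hour 12 lies above every array of hour 6.

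Over all members no probe set was called for the hour with all 12 arrays in limma, beside 0.21% of all probe sets, and 12 of the 74 had an unadjusted p under 0.05 (16.2%, against 17.6% of all). The direction leaned upward: 48 of 74 members were higher at hour 12, with a median of 0.09 against -0.05 for all probe sets. In 4 members the hours did not overlap, all with hour 12 higher, which is 5.41% of the 74, against 1.53% of all probe sets, where 22 were higher and 58 lower. The 4 were both tested Hspa5 probe sets and 2 of Hsp90ab1.

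Hsp90ab1, the constitutive cytosolic Hsp90, had 4 probe sets. On S45392_at the arrays read 14.66, 14.26 and 14.68 at ZT6, 14.92, 14.80 and 14.86 at CT6, 15.11, 15.00 and 15.01 at ZT12, and 15.04, 15.13 and 15.03 at CT12. On rc_AI008074_s_at they read 12.81, 12.91 and 12.97 at ZT6, 13.21, 12.87 and 13.01 at CT6, 13.29, 13.29 and 13.50 at ZT12, and 13.92, 13.44 and 13.32 at CT12. Both sets separated the hours, the first with its lowest value at ZT6 and the second with its highest on CT12 array 1. The differences were 0.36 ± 0.10 (limma adjusted p = 0.187) and 0.50 ± 0.13 (limma adjusted p = 0.157), and neither passed, with or without CT12 array 1. The other Hsp90ab1 probe sets gave 0.11 ± 0.09 and 0.05 ± 0.11, so the probe sets of this gene did not give 1 size. S45392_at correlated with the lens level at r = 0.67 (permutation p = 0.023, 0.185 adjusted; rho 0.69, permutation p = 0.017, 0.106 adjusted), and at 0.54 without the 2 farthest arrays. With the lens level as a covariate its hour difference was 0.26 ± 0.12, and that of rc_AI008074_s_at 0.47 ± 0.16.

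By compartment, 22 of 27 ER probe sets were higher at hour 12 with a median of 0.14, 22 of 39 of the cytosol and nucleus with a median of 0.06, and 4 of 8 mitochondrial ones with a median of 0.01. With the values as deposited these counts were 19, 19 and 4, and the cytosolic median turned to -0.01. Without CT12 array 1 they were 21 in the ER with a median of 0.13, 22 in the cytosol and nucleus with 0.03, and 3 in the mitochondrion, where the median turned to -0.06. Among targets of the unfolded protein response, taken from a fixed list, 19 of 25 probe sets were higher with a median of 0.14, and among heat shock factor targets 21 of 27 with a median of 0.17. Without CT12 array 1 these were 19 with a median of 0.16 and 20 with a median of 0.18. None of these probe sets was called with all arrays. Of all probe sets, 43.7% were higher at hour 12. On the unfolded protein response list, among those that read lower, Trib3 gave -2.28 ± 0.60 (limma adjusted p = 0.17) and Ddit3 -0.90 ± 0.30 (limma adjusted p = 0.223). The heat shock factor list holds the 4 probe sets of Hspb1 and those of Cryab, which is also a lens gene and gave 1.23 ± 0.81 and 1.45 ± 0.82. The part of lens signal in that count was not tested.

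With all 12 arrays no ER gene with the stress element in its promoter was called, Hspa5 included. How far the others differed from Hspa5 was not tested. Hsp90b1, the Hsp90 of the ER, gave 0.13 ± 0.14, 0.15 ± 0.15 and -0.19 ± 0.17 on its 3 probe sets. Calr, the soluble lectin chaperone, gave 0.24 ± 0.15, 0.12 ± 0.10 and 0.02 ± 0.14. The 5 probe sets of Canx, the membrane-bound lectin chaperone calnexin, gave values from -0.06 ± 0.17 to 0.43 ± 0.25. P4hb, a disulfide isomerase whose promoter did not hold these letters, gave 0.00, -0.02 and -0.23. Among cytosolic members that read lower at hour 12, Hspb6, a small heat shock protein, gave -0.38 ± 0.13 on D29960_at (limma adjusted p = 0.228). The mitochondrial chaperonin Hspd1 gave 0.03 ± 0.09 and 0.39 ± 0.21. None of these passed.

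**Figure D2:**
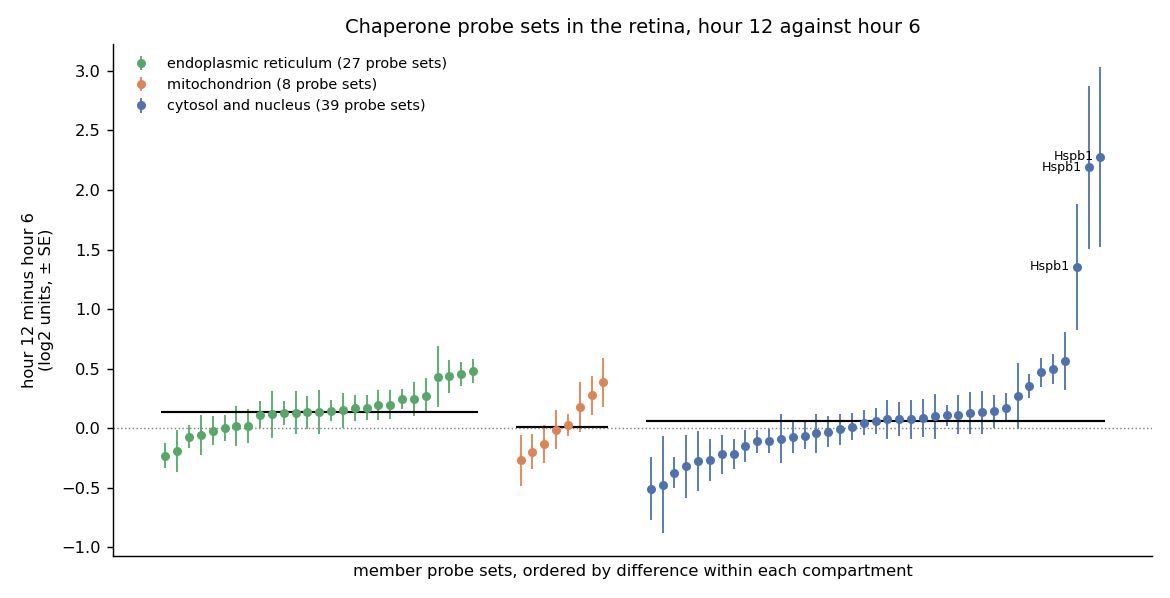
Difference between hour 12 and hour 6 in the retina, in log2 units ± SE, for each of the 74 tested probe sets, ordered within the compartment of the protein; black lines are the medians of each compartment. The ER median is 0.14, the mitochondrial 0.01 and the cytosolic 0.06, and the 3 labelled Hspb1 probe sets lie above 1.

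Among other genes of the pathway, 60 co-chaperones, folding enzymes and stress sensors outside the set were listed and 21 were on the array, with 29 probe sets tested. The list was chosen with earlier results of these data known, so a call on it is no independent support. For the hour 0.21% of all probe sets were called, and 1.3% without CT12 array 1. On the list 1 rose with the hour, P4ha1, the catalytic subunit of the prolyl hydroxylase that P4hb belongs to. P4ha1 rose by 0.96 ± 0.13 (limma adjusted p = 0.0131; without CT12 array 1 by 0.89, limma adjusted p = 0.00552). The values of its partner P4hb, given above, did not pass.

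Under ZT alone, no member was called between ZT12 and ZT6 in limma, beside 0.286% of all probe sets; 10 of 74 had an unadjusted p under 0.05 (13.5%, against 8.62% of all), and 50 were higher at ZT12. The ZT12 and ZT6 arrays did not overlap in 31.1% of members, against 25.4% of all probe sets. The member with the smallest p was Canx. Its probe set rc_AI010725_at read 12.84, 13.63 and 13.52 at ZT6 and 14.16, 14.43 and 14.34 at ZT12, without overlap. The difference was 0.98 ± 0.21 (limma adjusted p = 0.113; without CT12 array 1 0.95, limma adjusted p = 0.0512).

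Under CT the same Canx probe set went the other way, with 13.90, 14.24 and 13.86 at CT6 and 13.64, 13.54 and 13.51 at CT12. The hours again did not overlap, which held for 28.4% of members and 26.5% of all probe sets under CT. The difference between the hour effects was -1.41 ± 0.30 (limma adjusted p = 0.135), with 0.0191% of all probe sets called and 0 of 74 members; 11 members had an unadjusted p under 0.05. The other 4 Canx probe sets gave -0.97 ± 0.36 on rc_AI010725_g_at, which shares its source sequence, -0.66 ± 0.51 on rc_AI235707_g_at, -0.54 ± 0.34 on L18889_at and -0.16 ± 0.39 on rc_AA893328_at, all of the same sign and none called.

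Hspb2, a small heat shock protein best known from muscle, showed the opposite pattern to Canx. On U75899mRNA_g_at it read 11.02, 11.17 and 11.07 at ZT6, 10.62, 10.79 and 10.13 at ZT12, 10.77, 10.69 and 10.40 at CT6, and 11.83, 11.43 and 10.99 at CT12. It was lower at hour 12 under ZT and higher under CT. Each time the hours did not overlap, as in 25.4% of all probe sets under ZT and 26.5% under CT. The difference between the hour effects was 1.37 ± 0.33 (limma adjusted p = 0.176). Canx and Hspb2 were 2 of 74 members with opposite hour effects in every array, against 174 of 5244 probe sets.

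Under CT, the small heat shock protein Hspb1 gave the largest differences between CT12 and CT6, and its level moved with that of lens genes. Hspb1 holds unfolded proteins for later refolding and is abundant in muscle and lens. On rc_AA998683_g_at it read 10.88, 10.86 and 9.82 at CT6 and 16.48, 14.88 and 11.48 at CT12. At ZT6 it read 10.48, 10.29 and 10.31, and at ZT12 12.69, 9.92 and 10.86. The CT12 arrays 1 and 2 stood far above all others, and ZT12 array 1 was next after them. No member was called in CT12 against CT6, beside 0.0381% of all probe sets; 17 of 74 had an unadjusted p under 0.05 (23.0%, against 27.4% of all).

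The difference of Hspb1 between CT12 and CT6 was 3.76 ± 1.06 for this probe set (limma adjusted p = 0.126), 3.71 ± 0.97 for M86389cds_s_at (limma adjusted p = 0.119) and 2.77 ± 0.75 for rc_AI176658_s_at (limma adjusted p = 0.12). The fourth probe set, rc_AA998683_at, gave 0.62 ± 0.17 (limma adjusted p = 0.12). Without CT12 array 1 the first 3 gave 2.62, 2.51 and 1.76 and did not pass. Without CT12 array 3, the lowest CT12 array, they gave 5.17, 4.98 and 3.74 for Hspb1 rc_AA998683_g_at, M86389cds_s_at and rc_AI176658_s_at, and were called, so a single CT12 array decided the call.

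Crystallins and lens membrane proteins mark lens tissue, though the retina makes some crystallins itself. The 12 lens genes measured averaged 17.22, 17.07 and 15.56 on the CT12 arrays, 16.28, 14.39 and 14.54 at ZT12, 14.96, 15.37 and 11.27 at CT6, and 14.89, 11.45 and 14.92 at ZT6. As above, the permutations ignored these groups. Over the 12 arrays, Hspb1 rc_AA998683_g_at followed this level with a Spearman rho of 0.95 (permutation p = 4e-05, 0.00296 after adjustment over 74 members). Pearson's r was 0.74 (permutation p = 0.012, 0.16 adjusted), and 0.95 over the 10 arrays left without the 2 farthest from the median, ZT6 array 2 and CT6 array 3, which had little lens signal. For M86389cds_s_at rho was 0.82 (permutation p = 0.0021, 0.0388 adjusted) and r 0.72 (permutation p = 0.014, 0.16 adjusted), and for rc_AI176658_s_at rho was 0.87 (permutation p = 0.00047, 0.0174 adjusted) and r 0.67 (permutation p = 0.017, 0.16 adjusted). With the lens level as a covariate the CT12 minus CT6 difference of Hspb1 was 2.41 ± 1.17 on rc_AA998683_g_at, 2.58 ± 1.09 on M86389cds_s_at and 1.98 ± 0.87 on rc_AI176658_s_at, each smaller than without it. On the fourth probe set, rc_AA998683_at, it was 0.76 ± 0.21, larger than without it. None of these passed.

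Other members were lower where the lens level was higher. Ppid, a cyclophilin that works with Hsp90, gave r = -0.84 (permutation p = 0.00054, 0.04 adjusted), the only Pearson relation of the 74 to pass, with rho -0.74 (permutation p = 0.0077, 0.0679 adjusted) and r = -0.72 without the 2 farthest arrays. Dnaja3, a mitochondrial J protein, gave rho -0.80 (permutation p = 0.0028, 0.0413 adjusted) and r = -0.83 (permutation p = 0.002, 0.0736 adjusted). Dnajc5, the cysteine string protein of synaptic vesicles, gave rho -0.84 on rc_AA859806_at (permutation p = 0.0012, 0.0294 adjusted) and r = -0.56 (permutation p = 0.085, 0.307 adjusted).

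**Figure D3:**
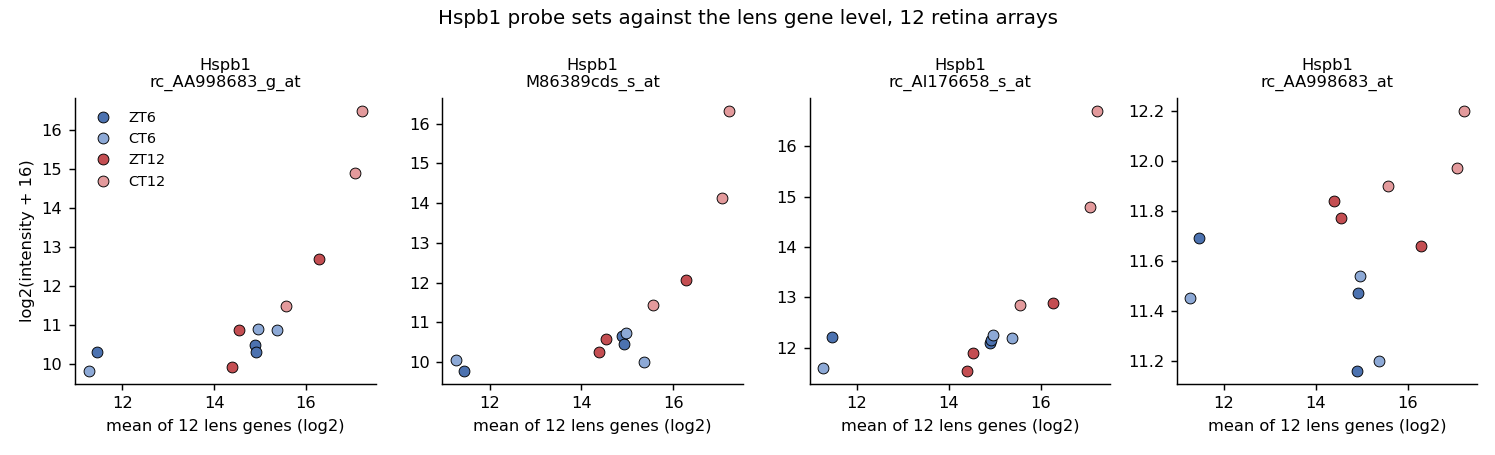
Level of the 4 Hspb1 probe sets against the mean level of 12 lens genes on each of the 12 retina arrays, both in log2 units, coloured by group, with a separate vertical axis in each panel. In 3 panels the points climb with the lens level up to CT12 arrays 1 and 2, and rc_AA998683_at, with r of 0.38, spans about 1 log2 unit.

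Several other heat shock genes stood apart on CT12 array 1. Dnajb1, the J protein that partners the inducible Hsp70, read 13.96 there on rc_AA859648_at, against 11.78 to 12.63 on the other 11 arrays. Hspe1 read 13.85 on rc_AI170613_at, where CT12 arrays 2 and 3 read 12.98 and 12.90. Hspa1a, the inducible Hsp70 itself, was lower, with 10.59 on this array and 12.84 to 13.59 elsewhere; its probe set Z75029_s_at carries the suffix for sequence shared between related transcripts, so its signal cannot be given to 1 Hsp70 copy. Dnajc5 read 12.28 there on rc_AA859806_at, against 13.94 to 14.48 elsewhere, and the synaptic marker list read 10.19 on the same array. The other 2 CT12 arrays lay nearer the remaining groups in each case.

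Between regimes at hour 12, CT12 against ZT12 gave no member call, beside 0.61% of all probe sets, with 17 of 74 at an unadjusted p under 0.05 (23.0%, against 26.2% of all). The smallest p belonged to Fkbp2, an ER prolyl isomerase that binds FK506. On AA684963_at it read 11.55, 11.64 and 11.59 at ZT12 and 12.39, 11.96 and 12.43 at CT12, a difference of 0.67 ± 0.16 (limma adjusted p = 0.101; 0.124 without CT12 array 1). The J protein Dnaja4 gave 0.78 ± 0.20 on AA848268_at (limma adjusted p = 0.106), and a difference of 0.69 without CT12 array 1. Pdia3, the isomerase that acts with calnexin and calreticulin, gave 0.55 ± 0.15 on X12355_s_at (limma adjusted p = 0.108), and a difference of 0.45 without that array. All of these had CT12 arrays above the ZT12 arrays. No overlap between these groups, in either direction, was found in 23.0% of members and 28.8% of all probe sets. Fkbp2, Dnaja4 and Pdia3 each had another tested probe set, which differed less. Fkbp2 C06598_at averaged 12.39 at ZT12 and 12.49 at CT12, and Pdia3 rc_AA892637_at 9.59 and 9.63. Dnaja4 rc_AA799570_at went the other way, with 12.30 and 12.17. Canx rc_AI010725_at was lower at CT12, at -0.74 ± 0.21 (limma adjusted p = 0.11), with a difference of -0.76 without CT12 array 1. All 7 probe sets of small heat shock proteins were higher at CT12, with a median of 0.91, and 0.70 without CT12 array 1; 4 of the 7 belong to Hspb1. Marker lists of other tissues, normalized with all 16 arrays, lay higher at CT12 than at ZT12 too: blood at 12.32 to 13.02 against 11.32 to 11.82 (5 of 11 listed genes measured) and pigment epithelium at 12.32 to 13.48 against 10.71 to 11.89 (2 of 10). Lens genes were at 15.54 to 17.19 against 14.38 to 16.27, with overlap. Their part in these differences was not tested.

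At hour 6, CT6 against ZT6 called no probe set at all, 0.0% of 5244, and 4 of 74 members had an unadjusted p under 0.05 (5.41%, against 5.07% of all). Canx rc_AI010725_at again had the smallest p, 0.67 ± 0.21 higher at CT6 (limma adjusted p = 0.848). Over both hours, CT against ZT also called none, 0.0% of all probe sets, with 6 members at an unadjusted p under 0.05 (8.11%, against 11.8% of all). Pdia3 X12355_s_at gave 0.35 ± 0.11 and Ppib, the ER cyclophilin, 0.45 ± 0.14 on AF071225_at (limma adjusted p = 0.318 for both); without CT12 array 1 these were 0.30 and 0.34 (0.239 and 0.187). No member separated the 6 CT arrays from the 6 ZT arrays, beside 0.82% of all probe sets.

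Between tissues, most members differed, and they split almost evenly by direction. Of 76 tested probe sets, 64 were called between pineal and retina in limma (84.2%, against 75.8% of all probe sets), 30 higher and 34 lower in the pineal. The arrays of the tissues did not overlap for 54 members, 24 higher and 30 lower (71.1%, against 51.6% of all). The pineal list of marker genes averaged 12.22 to 12.80 on the pineal arrays and 8.03 to 9.64 on the retina arrays, in accord with the titles. Of the 34 lower calls, 9 (26.5%, against 35.1% of the lower calls of all probe sets) had a pineal mean under 8.825, the level of the filter, and so passed it through the retina alone; for these the levels are given below without a size. Of the 30 higher calls, 2 had a retina mean under that level, against 185 of 2066 for all probe sets. The counts by compartment below include all of these calls. In whole tissue, more cells of a type and more RNA per cell cannot be told apart.

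Mitochondrial members were mostly higher in the pineal, with 6 of 8 probe sets higher, 2 lower and a median of 1.28, against 0.09 for all probe sets. Hspd1, the chaperonin Hsp60, read 15.88, 16.12, 16.22 and 16.60 on the pineal arrays on X54793_at, and between 13.64 and 13.97 on the retina arrays with a median of 13.75. It rose by 2.42 ± 0.11 (limma adjusted p = 1.24e-10), a 5.35-fold difference, and its second probe set rose by 2.78 ± 0.21. Hspe1, the lid of the same chaperonin, rose by 2.88 ± 0.17 and 1.05 ± 0.20, and Ppif, the mitochondrial cyclophilin, by 1.19 ± 0.16. Dnaja3 fell by 1.27 with an SE of 0.23. The mitochondrial Hsp70, Hspa9, rose by 1.36 ± 0.30 on S78556_at and was called lower on S75280_s_at, where the pineal arrays read 6.53 to 9.93 and the retina arrays 10.38 to 11.28.

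In the cytosol, 14 of 40 probe sets were higher, 18 lower, with a median of -0.04. Dnaja1, a partner of constitutive Hsp70, read 15.07 to 15.91 in the pineal on U53922_at, against 12.78 to 13.43 in the retina, and its probe sets rose by 2.28 ± 0.16 and 2.59 ± 0.23. Hspa4 rose on both of its probe sets, by 1.49 ± 0.23 and 1.92 ± 0.15, and Ppid by 2.33 ± 0.19. Hsp90ab1 fell on 3 of 4 probe sets, with differences of -4.26, -2.81 and -1.48, and gave -0.04 ± 0.12 on rc_AI236795_s_at, which turned to 0.53 and a call when arrays were scaled to a common median. Fkbp4, another Hsp90 partner, fell on all 3 of its probe sets, with differences of -1.90, -1.71 and -2.21. Fkbp1a, the cytosolic FK506-binding protein, fell on 3 of 4, with differences of -2.14, -0.75 and -2.32, the second of which was not called with a common median (-0.28). Dnajc5 was called lower on S81917_s_at, at 5.57 to 6.68 in the pineal against 9.72 to 11.59 in the retina, and on U39320_at, also with a pineal mean under the filter, while rc_AA859806_at gave 0.52 ± 0.26 and was not called.

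In the ER, 10 of 28 probe sets were higher and 14 lower, with a median of -0.50. Hspa5 read 13.18, 13.44, 13.83 and 14.04 on the pineal arrays on S63521_i_at, against 10.03 to 10.82 in the retina, and rose by 3.19 ± 0.10 (limma adjusted p = 4.98e-12). On M14050_s_at it rose by 0.76 ± 0.14, and the retina and pineal arrays overlapped. Dnajb9, an ER J protein of the unfolded protein response, rose by 2.30 ± 0.12. Calr fell on D78308_at and D78308_g_at, with differences of -0.88 and -1.23, though the first gave -0.13 and no call with a common median. The remaining probe set, X53363cds_s_at, was also called lower, with uneven pineal readings of 9.91, 9.90, 6.02 and 8.89 against 12.42 to 13.07 in the retina. Ppib gave -0.998 ± 0.17 on rc_AA818487_s_at, and was called lower on AF071225_at with a pineal mean of 8.72. P4hb gave -1.74 ± 0.11 on X02918_at, which was called, and 0.20 ± 0.13 on X02918_g_at. On M21476_s_at it was called lower, at 5.70, 5.70, 6.21 and 7.42 in the pineal against 10.65 to 11.26 in the retina.

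Probe sets of 1 gene often disagreed between tissues. Of 23 member genes with at least 2 tested probe sets, 8 had calls in both directions (34.8%, against 23.2% of 909 genes): Canx, Dnaja4, Dnajb1, Hsp90b1, Hspa9, Hspb6, Hsph1 and Pdia3. Leaving out calls whose lower tissue had a mean under the filter, a count made after the values were seen, 5 remained (21.7%, against 15.4%), without Dnaja4, Hspa9 and Hsph1. Pdia3 gave -1.67 ± 0.11 on X12355_s_at and 1.59 ± 0.12 on rc_AA892637_at, and Hsp90b1 gave -3.02 ± 0.18, -2.73 ± 0.16 and 1.90 ± 0.19. Hsph1, the Hsp110 protein, read 15.02, 15.02, 15.58 and 15.96 in the pineal on rc_AI236601_at against 11.64 to 12.58 in the retina, a rise of 3.21 ± 0.16. On AA108277_at it read 6.67, 5.97, 6.11 and 7.71 against 9.09 to 10.22, and these pineal readings lie under the filter. Canx gave -3.58 on L18889_at and 1.24 and 1.37 on the probe sets of rc_AI010725, all called. The median gap between the probe sets of a gene was 2.43 log2 units, against 1.63 for all such genes. In the scaling used here, 5 genes rose on every tested probe set, Dnaja1, Hspa4, Hspa5, Hspd1 and Hspe1 (21.7%, against 15.2% of all such genes), and 4 were called lower on every one, Calr, Fkbp2, Fkbp4 and Ppib (17.4%, against 22.4%), which are shares near the background. For Calr and Ppib this count includes a probe set with a pineal mean under the filter, X53363cds_s_at at 8.68 and AF071225_at at 8.72.

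RNA controls differed between the tissues too. The signal of the 3' over the 5' Gapdh control was 1.07 to 1.65 on the retina arrays and 13.7 to 17.9 on the pineal arrays, and that of Actb was 1.08 to 1.46 and 5.14 to 8.72. The Gapdh ratio of 1.65 was that of CT12 array 1, and the other retina arrays lay at 1.07 to 1.21. Its Actb ratio, 1.37, lay within the range of the other retina arrays. Among members, probe sets whose name begins with rc_, which stand for the reverse complement of an expressed sequence tag, were higher in 21 and lower in 12 of 40 cases, with a median of 0.65. The other 36 were higher in 9 and lower in 22, with a median of -1.35. Over all probe sets these medians were 0.45 and -0.24. The part of the control ratio in the tissue differences was not tested.

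**Figure D4:**
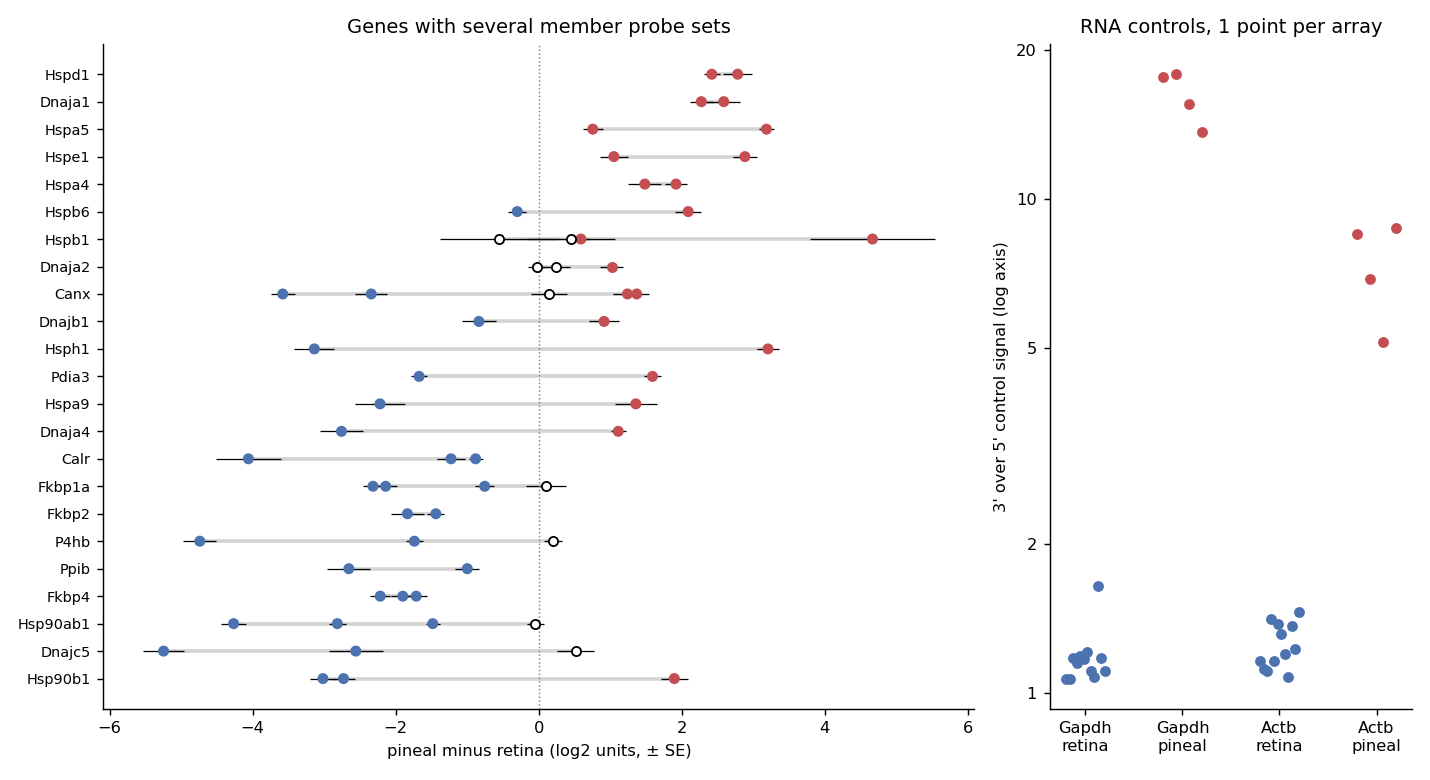
Left, pineal minus retina in log2 units ± SE for the probe sets of the 23 genes with 2 or more tested; red points were called higher, blue lower, open points were not called, and a grey bar joins the probe sets of a gene. Right, the ratio of the 3' to the 5' control signal of Gapdh and Actb on each array, on a log axis, with all pineal arrays above all retina arrays.

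Between tissues, Hspb1 was called higher in the pineal on 2 of its 4 probe sets, by unlike sizes. Its probe set rc_AA998683_g_at read 16.76, 16.82, 15.42 and 15.70 there, against a retina median of 10.76, and rose by 4.67 ± 0.87 (limma adjusted p = 2.2e-04), with overlap from CT12 array 1. Of the other Hspb1 probe sets, rc_AA998683_at was called, at 0.59 ± 0.13, and 2 were not, M86389cds_s_at and rc_AI176658_s_at, at -0.55 ± 0.82 and 0.45 ± 0.61. The lens list lay between 8.93 and 9.40 on the pineal arrays, and between 11.23 and 17.19 on the retina arrays. The part of lens signal in these Hspb1 differences was not tested.

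Tissue calls of members moved with the scaling. As deposited, the median of all probe sets was -0.23, and with arrays scaled to a common median it was 0.28, against 0.09 here. The members' split went from 30 higher and 34 lower to 32 and 36 as deposited and 37 and 29 with a common median, and that of all probe sets from 51.9% higher to 41.6% as deposited and 57.5% with a common median. The mitochondrial count of 6 higher and 2 lower was the same under each. Of the pathway genes outside the set, 29 probe sets were tested. In the pineal 9 were called higher and 14 lower, where 75.8% of all probe sets were called. Grpel1, the nucleotide exchange factor of mitochondrial Hsp70, rose by 2.82 ± 0.14, Chordc1 by 2.87 ± 0.20 and the ER stress kinase Eif2ak3 by 2.15 ± 0.20. Stip1, Erp29 U36482_at, Vcp rc_AI044341_s_at and Cdc37 D26564_at were among those called lower. Erp29 U36482_g_at and Cdc37 D26564_g_at were called higher, by 1.45 ± 0.12 and 1.45 ± 0.13, and Vcp U11760_at was not called.

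Within the pineal, with 1 array per condition and no test, the inducible Hsp70 and Hspa5 were higher at hour 12 under both regimes. Hspa1a read 9.81 at ZT6 and 12.51 at ZT12, and 10.44 at CT6 and 12.50 at CT12, as deposited. Hspa5 M14050_s_at read 13.30 and 14.36 under ZT, and 13.62 and 14.89 under CT. Both hour differences were thus above 1 log2 unit, 2.70 and 2.06 for Hspa1a and 1.07 and 1.27 for Hspa5. The second Hspa5 probe set was higher by 0.70 and 0.63, under the size used here. These rest on single arrays, and the array titled ZT 12 is the one whose description gives another hour.

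Fkbp2 AA684963_at and Hspb1 rc_AI176658_s_at were lower at hour 12 by more than 1 in both regimes, -1.54 and -1.36, and -1.12 and -1.13. These 4 of 72 members past the filter stand beside 134 of 5244 probe sets (2.56%). For 46 of the 72, the sign was the same under ZT and CT. The member medians were 0.01 under ZT and 0.08 under CT, against -0.07 for all probe sets in both. Hspa5 M14050_s_at was thus higher at hour 12 in both tissues, by 1.07 and 1.27 on single pineal arrays and by 0.46 ± 0.10 in the retina. Hspa1a was not higher in the retina, with 12.87 to 12.91 at ZT6 and ZT12 on all 6 arrays.

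**Figure D5:**
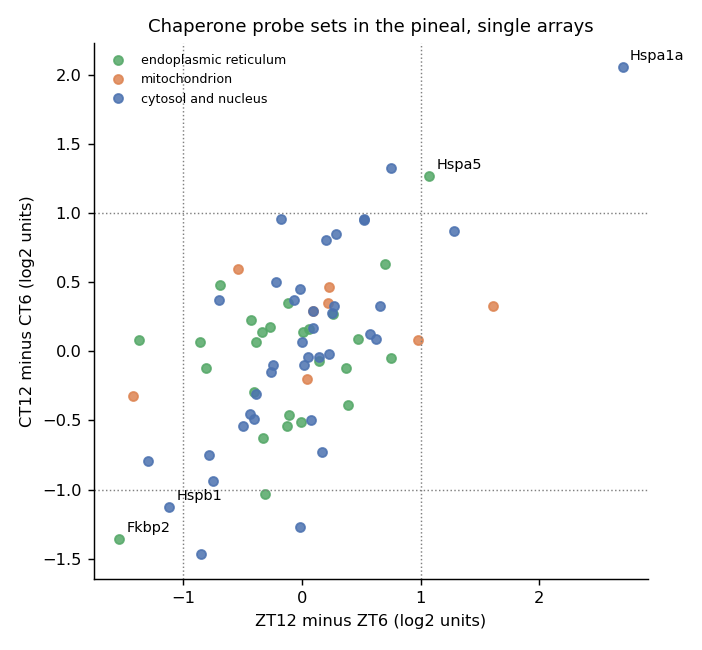
Difference between hour 12 and hour 6 in the pineal under CT against that under ZT, in log2 units, for the 72 members past the filter, 1 array per condition, coloured by compartment. Dotted lines mark a difference of 1; the 4 labelled probe sets pass it in the same direction on both axes.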

How the data were processed

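The authors deposited 1 linear intensity per probe set and array; which software, background correction and scaling made it is not given in the sources used here. Gene symbols came from the platform annotation. The 12 retina arrays, or all 16 for tissues, were quantile normalized, 16 was added, log2 was taken, and probe sets with a mean at or above the 40th percentile were kept (5244). limma 3.58.1 in R 4.3.3 fitted the 4 retina groups (8 residual degrees of freedom) or tissue plus condition (11), with lmFit and eBayes, two-sided, and Benjamini-Hochberg adjustment over 5244 at 0.05. Pineal hours were compared as deposited, with no test, by a difference of 1 or more in both regimes. The procedure was tested on simulated data. Members, lists and tests were chosen with earlier results of these data known. Named probe sets were those called, at most 12 per direction, where fewer than 10 were called also the 4 per direction with the smallest p, and a fixed list of known chaperones; Dnaja3, Ppif, Fkbp2, Hspa4 AF077354_at between tissues and the dim members were added after their values were seen. Alternatives were an offset of 1 or 64; no normalization, or scaling to a common median; no filter or one at the 60th percentile; eBayes with trend and robust; arrayWeights; a replicate block of the numbers in the titles; the lens level as covariate; only the 6 arrays compared; quantile normalization of the pineal arrays; the arrays numbered 3 left out, since their source label differs; and each array left out in turn.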

Additional observations from a re-analysis of the deposited data

Results flagged for a closer look

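Canx rc_AI010725_at was higher at hour 12 on every array under ZT and lower on every array under CT, and the same 12 values make CT higher than ZT at hour 6 and lower at hour 12. The difference between the effects was -1.409 log2 units, and its test did not pass (limma adjusted p = 0.135, 0.0827 without CT12 array 1). Hspb2 U75899mRNA_g_at showed both patterns in the opposite sense, with a difference of 1.373 that did not pass either (limma adjusted p = 0.176, 0.109 without CT12 array 1). Opposite effects of the hour in every array were seen in 174 of 5244 probe sets, and opposite effects of the regime in 168.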

How the results depend on the processing

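With array weights, whose estimation stopped before its tolerance in 1 fit, members called were 7 for ZT12 against ZT6, 34 for CT12 against CT6, 31 for CT12 against ZT12, 19 for the hour, 11 for CT against ZT and 19 for the difference between hour effects, where the fit without weights called 0. Leaving out 1 array at a time gave 0 to 14 for CT12 against CT6 and 0 to 12 for CT12 against ZT12. It gave 0 to 5 for the hour and 0 to 2 for the difference between hour effects. The highest counts came without CT12 array 3. The hour count was 2 without CT12 array 1, beside 1.3% of all probe sets. For the other counts, with array weights or an array left out, the share over all probe sets is not given here. They are therefore no result about the members in particular. The title number as a replicate block called 0 members in all 7 retina comparisons; deviations of arrays with the same number correlated between -0.41 and 0.41, over 0.1 in 5 of 18 pairs, so the numbers were not taken as pairs. Tissue calls stayed between 56 and 70 of the members tested. Turned signs among called values were Pdia4 M86870_at in CT12 against CT6 (-0.381), Pdia3 rc_AA892637_at in CT12 against ZT12 (-0.237) and Hspa1a in CT against ZT (0.392), each with array weights, and Hsp90ab1 rc_AI236795_s_at between tissues with a common median (0.53). The cause was not tested. Of 9387 retina values under alternatives, 387 uncalled ones changed sign and 132 came to pass; of 1468 tissue values, 7 called ones no longer passed.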

Other observations

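The 11 member probe sets below the filter of the tissue comparison were not tested, and 4 of them read higher on every pineal array than on any retina array (36.4%, against 11.7% of the 3496 probe sets below that filter). Hspa13, an Hsp70 protein of the ER and microsomes, read 10.38, 10.45, 10.44 and 10.06 on the pineal arrays and 6.28 to 8.98 in the retina. Ppig, a nuclear cyclophilin linked to splicing, read 9.60 to 10.54 on AF043642_at in the pineal and 7.01 to 8.82 in the retina, while its other probe set, rc_AA963091_at, read 5.13 to 5.93 and 5.37 to 8.49. Dnajb14, an ER J protein, read 8.63 to 9.51 in the pineal and 6.05 to 8.25 in the retina. Hspa1l, the Hsp70 best known from testis, read 8.07 to 9.04 in the pineal and 4.95 to 7.78 in the retina. Hspa2, another Hsp70 of germ cells, read 5.88 to 7.99 in the pineal and 7.94 to 9.27 in the retina, so the ranges overlap.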
